A study of Mus musculus with 6 samples.

Results

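Interferon-induced genes are the 54 genes considered here, of 54532 genes in the deposited table of mouse bone marrow neutrophils. They were chosen by name, with earlier results of these data known, as genes induced by type I or type II interferon. The receptors and transcription factors that regulate them were included, and each name matched 1 row of the table. All 54 passed the filter on low values (a mean of at least 0.1 FPKM over the 6 libraries), and 53 of them had a mean of at least 1 FPKM. The exception was Ifi44. FPKM is the number of sequenced fragments on a gene per kilobase of its length, scaled for the size of the library, so levels may be set beside each other between genes.

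Type I interferons bind a receptor made of IFNAR1 and IFNAR2, and interferon gamma binds IFNGR1 and IFNGR2. Both receptors act through Janus kinases, which phosphorylate STAT proteins. STAT2 and IRF9 are subunits of the complex ISGF3, which binds interferon-stimulated response elements, whereas STAT dimers bind gamma-activated sites. The genes switched on in this way encode sensors of viral nucleic acid, inhibitors of viral replication and GTPases that attack vacuoles holding microbes, and neutrophils respond to type I interferon in fungal as well as viral infection.

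Neutrophils were taken from the bone marrow of mice with anti-Ly-6G magnetic beads, and all 6 cultures were challenged in vitro with Candida albicans for 6 h, so a level without the fungus was not measured. The WT group held 3 libraries (replicates 1 to 3) and the progranulin knockout (PGRN KO) group held 3 libraries (replicates 4 to 6), all labelled C57BL/6J. The WT mice and the PGRN KO mice came from different suppliers, and genotype and source of the mice cannot be told apart. The methods say that mice were matched by sex and age. The age itself and the number of mice behind each culture are not stated for these cultures, so p-values measure the spread between these samples, which may be technical. The labels and the study's text give different ratios of fungus to cells, and macrophage libraries of the series were not used here.

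A library size was inferred for each library from the steps between its low values. FPKM times gene length times that size gave whole numbers of fragments (within 0.05), which summed to 17290604 to 17799798 fragments per WT library and 17087344 to 18821091 per PGRN KO library. Grn, which encodes progranulin, was at 168, 161 and 166 FPKM in WT and 0.242, 0.206 and 0.747 FPKM in PGRN KO, as the labels say. Neutrophil markers were abundant in every library, with a sum over 12 genes of 72377 to 76943 FPKM in WT and 73688 to 83698 FPKM in PGRN KO. In bulk libraries such as these, fewer cells of a type and less RNA per cell cannot be told apart.

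The interferon-induced genes were on balance lower in PGRN KO than in WT neutrophils. Of the 54, 24 (44.4%) were called lower at an adjusted p under 0.05 by limma on log2(FPKM + 1), none was called higher, and 30 were not called. Among all 14807 genes tested, 9.95% were called lower and 7.94% higher, and among the 9249 with a mean of at least 1 FPKM, 14.5% were called lower. At an unadjusted p under 0.05, 32 of the 54 were lower and 0 were higher, against 16.9% and 15.2% of all genes tested. The log2 fold change, always PGRN KO minus WT, was below 0 for 45 members and above 0 for 9, with a median of -0.19, against a median of 0.0026 over all genes tested. Each value rests on 3 libraries per genotype. Of 10 monocyte and macrophage markers, 5 were also called lower in PGRN KO and 5 were not called. Their sum was 175 to 180.0 FPKM in WT and 132 to 153 FPKM in PGRN KO, and their part in these differences was not tested.

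The size of the change was modest for most members. Estimates ran from -0.98 for Mx1 to 0.18 for Gbp2, which was not called. For comparison, the 10th percentile of the log2 fold change over genes with a mean of at least 1 FPKM was -0.36, and 51.1% of those genes were below 0. For 30 members every PGRN KO library lay below every WT library, for 24 the genotypes overlapped, and for none did every PGRN KO library lie above every WT library. Over all genes tested, 19.6% were separated with PGRN KO below WT and 18.1% with PGRN KO above.

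**Figure D1:**
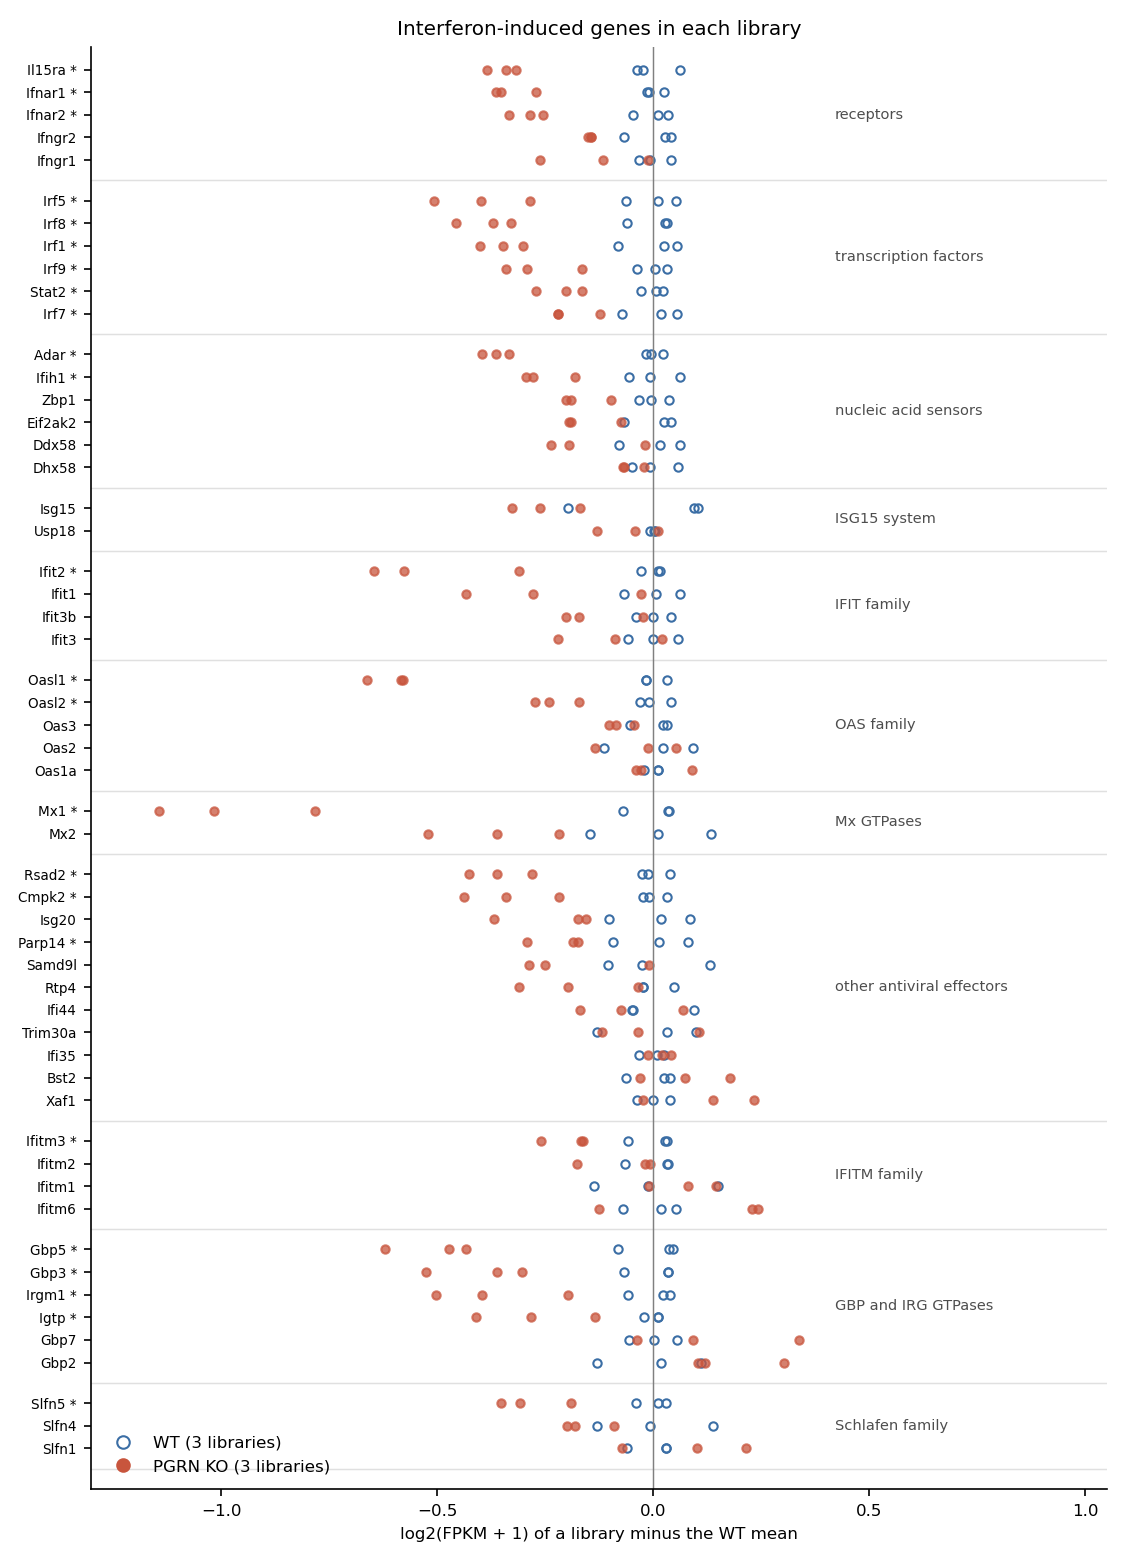
Each row is 1 of the 54 interferon-induced genes, grouped by role, and each point is 1 library, placed on the horizontal axis by its log2(FPKM + 1) minus the mean of the 3 WT libraries. Open blue points are WT and filled red points are PGRN KO, and an asterisk marks the 24 genes called lower by limma. The 3 PGRN KO points of Mx1 and Oasl1 lie far to the left of their WT points, whereas those of Oas1a, Oas2 and Trim30a overlap with them.

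These counts moved with the scaling of the libraries and with the model. The library sizes behind the deposited values place PGRN KO 0.12 lower against WT, in log2 units, than the plain totals of fragments do. With plain totals, 13 members were called lower and 1, Gbp2, was called higher (log2 fold change 0.29, adjusted p = 0.0396), and 38 members were below 0 and 16 above. The background was then 6.31% of all genes called lower and 14.5% called higher. The 13 were all among the 24. With voom on the recovered fragments, which changes the test as well as the scaling, 17 members were called lower, 16 of them among the 24, and 6 were called higher (Bst2, Gbp2, Gbp7, Ifitm6, Slfn1 and Xaf1), against 8.46% and 20.2% of all genes.

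**Figure D2:**
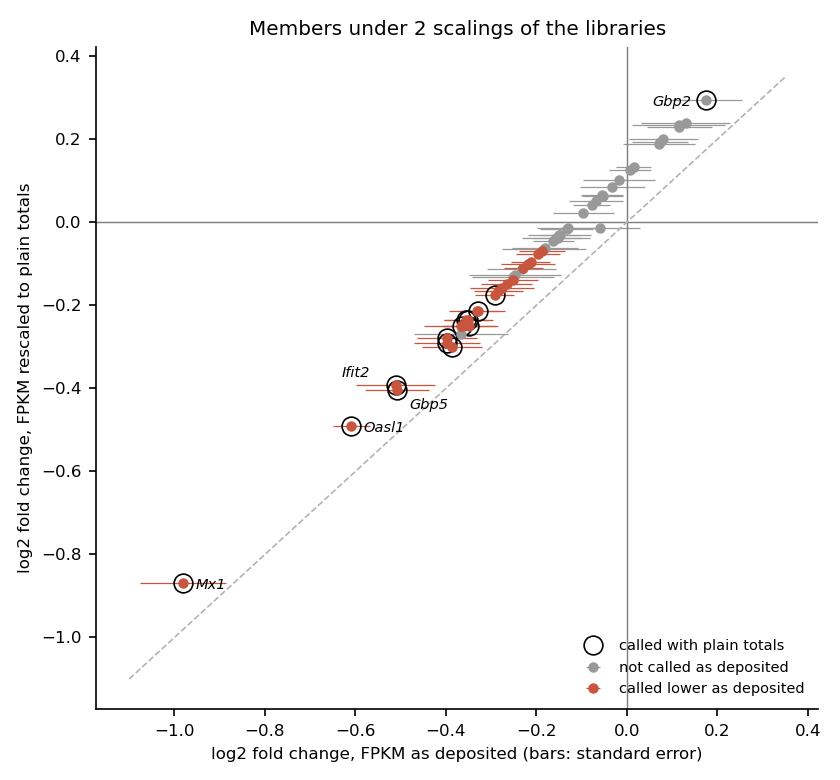
Each point is 1 of the 54 genes, with the log2 fold change from the FPKM as deposited on the horizontal axis (bars, standard error) and from the FPKM rescaled to plain totals on the vertical axis. Red points were called lower as deposited, grey points were not called, and a black ring marks a call with plain totals. The points lie above the dashed line of equal values by up to 0.12, least for genes of low FPKM, and Mx1, Oasl1, Ifit2 and Gbp5 remain the 4 lowest on both axes.

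Adar, Gbp5, Ifnar1, Ifnar2, Il15ra, Irf1, Irf5, Irf8, Mx1, Oasl1 and Rsad2 were called lower under all 16 alternatives, which include leaving out each library in turn. Gbp3 and Ifit2 were called lower under the 10 alternatives that kept all 6 libraries. The other 11 called members were called less often in the 6 fits that left out a library: Oasl2, Cmpk2 and Slfn5 in 3, Stat2, Irf9, Irf7 and Ifih1 in 2, Parp14, Igtp and Irgm1 in 1, and Ifitm3 in 0. Gbp3 was called in 4 of them and Ifit2 in 5. The number called lower fell to 12 without WT replicate 2, to 12 without PGRN KO replicate 5 and to 15 without WT replicate 1. Of all fragments, the 54 genes held 2.25%, 2.35% and 2.42% in WT and 2.16%, 2.23% and 2.33% in PGRN KO. These shares overlapped between genotypes, and Slfn4 alone made up 32.3% to 35.9% of the members' fragments.

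Of the 5 receptor genes, 3 were called lower. Ifnar1 (chr16:91485238-91507441, GRCm38), which encodes the signalling chain of the type I interferon receptor, was at 30.4, 31.3 and 30.5 FPKM in WT and 25.3, 23.9 and 23.7 FPKM in PGRN KO (log2 fold change -0.33, SE 0.044, adjusted p = 0.00452). Ifnar2 (chr16:91372783-91405589), its ligand-binding partner, was at 44.1, 44.8 and 42.3 FPKM in WT and 36.4, 34.5 and 35.7 FPKM in PGRN KO (log2 fold change -0.29, SE 0.044, adjusted p = 0.00697). All PGRN KO libraries lay below all WT libraries for both chains, and the means differed by 21.1% and 18.8% of the WT mean. Il15ra, which encodes the chain that presents interleukin 15, was at 4.81, 4.85 and 5.21 FPKM in WT and 3.78, 3.70 and 3.56 FPKM in PGRN KO (log2 fold change -0.35, SE 0.058, adjusted p = 0.00965).

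The receptor for interferon gamma was not called. Ifngr2, its signalling chain and the most abundant of the 5 receptor genes by the mean over all 6 libraries (in WT alone, Ifnar2 had the higher mean), was at 44.2, 44.6 and 41.3 FPKM in WT and 38.9, 39.1 and 39.1 FPKM in PGRN KO (log2 fold change -0.15, adjusted p = 0.0651), with no overlap between genotypes. Ifngr1, its ligand-binding chain, was at 39.5, 38.8 and 40.9 FPKM in WT and 36.6, 32.9 and 39.4 FPKM in PGRN KO (log2 fold change -0.13, adjusted p = 0.250), and here PGRN KO replicate 6 lay within the WT range. Ifnar2, Ifnar1 and Ifngr2 lie beside each other on chromosome 16 with Il10rb, which encodes a receptor chain shared by interleukin 10 and interferon lambda. Il10rb was lower in PGRN KO, at 64.4, 62.9 and 63.8 FPKM in WT and 49.0, 50.3 and 49.5 FPKM in PGRN KO (log2 fold change -0.36, SE 0.036, adjusted p = 0.00170).

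All 6 transcription factors were called lower, with the 3 PGRN KO libraries below the 3 WT libraries for each. Irf5, which drives cytokine genes downstream of Toll-like receptors, was at 48.7, 47.3 and 44.9 FPKM in WT and 38.3, 35.4 and 32.7 FPKM in PGRN KO (log2 fold change -0.40, SE 0.066, adjusted p = 0.00961). Irf8, which is needed to form monocytes and dendritic cells, had low levels of 3.17, 2.92 and 3.19 FPKM in WT and 2.26, 2.16 and 1.98 FPKM in PGRN KO (log2 fold change -0.39, SE 0.067, adjusted p = 0.0108), from 275 to 385 fragments per library. Its mean FPKM was 31.0% lower, a larger change than its log2 fold change conveys, because adding 1 to low FPKM values shrinks differences. Irf1, a factor induced by interferon gamma that activates GBP and MHC class I genes, was at 31.5, 30.8 and 28.5 FPKM in WT and 22.6, 23.6 and 24.3 FPKM in PGRN KO (log2 fold change -0.35, SE 0.054, adjusted p = 0.00756).

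Irf9 and Stat2, subunits of ISGF3, had smaller log2 fold changes. Irf9 was at 44.1, 43.2 and 42.0 FPKM in WT and 33.8, 35 and 38.3 FPKM in PGRN KO (log2 fold change -0.27, adjusted p = 0.0214). Stat2 was at 52.0, 53.9 and 53.4 FPKM in WT and 46.0, 43.8 and 47.3 FPKM in PGRN KO (log2 fold change -0.21, adjusted p = 0.020). Irf7, which amplifies the production of type I interferon and was the most abundant of the 6, was at 231, 225 and 211 FPKM in WT and 204, 191 and 191 FPKM in PGRN KO (log2 fold change -0.19, adjusted p = 0.0470). These 3 factors were separated between genotypes but by small margins: with plain totals, Irf9, Stat2 and Irf7 had log2 fold changes of -0.15, -0.095 and -0.068 and were not called, whereas Irf1, Irf5 and Irf8 were.

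Promoters of the members often held cores of the interferon-stimulated response element or of the gamma-activated site. The core of the interferon-stimulated response element, GAAANNGAAA, and that of the gamma-activated site, TTCNNNGAA, were searched on both strands of RefSeq promoter windows (GRCm38.p6), from 250 bases before to 50 bases after each start site. Windows were found for 46 of the 54 members. The response element core was in 22 of the 46 (47.8%), against 3.99% of 27025 genes, and the gamma-activated core was in 16 (34.8%), against 9.55%. A match to 1 motif does not require a match to the other. Among members called lower, 9 of 22 (40.9%) held the response element core, and among members not called, 13 of 24 (54.2%) did. For the gamma-activated core the numbers were 9 of 22 and 7 of 24. A match is a description of the letters in the window, and binding was not measured.

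Response elements stood both before genes that were called lower and before genes that were not, and 5 such stretches are shown for that reason, 5′ to 3′ on the strand of the gene, with the core in capitals, read as its reverse complement where it lies on the other strand. Rsad2, Gbp5 and Igtp were called lower, and Isg15 and Ifit3 were not.
Rsad2 (chr12:26456543-26456592, minus strand): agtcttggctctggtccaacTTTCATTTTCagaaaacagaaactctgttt
Gbp5 (chr3:142496749-142496798, plus strand): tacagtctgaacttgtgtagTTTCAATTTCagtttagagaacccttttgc
Igtp (chr11:58199502-58199551, plus strand): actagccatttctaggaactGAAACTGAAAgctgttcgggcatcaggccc
Isg15 (chr4:156200855-156200916, minus strand): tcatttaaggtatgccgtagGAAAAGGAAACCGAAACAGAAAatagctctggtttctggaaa
Ifit3 (chr19:34583353-34583436, plus strand): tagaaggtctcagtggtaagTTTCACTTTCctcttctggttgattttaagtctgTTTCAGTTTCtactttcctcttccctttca
The match began 120 bases before the start site in Rsad2, 165 in Gbp5 and 34 in Igtp. Isg15 held 3 overlapping matches and Ifit3 held 2 separate ones.

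Gamma-activated cores are shown for 3 regulators that were called lower, again with the core in capitals.
Irf1 (chr11:53769904-53769952, plus strand): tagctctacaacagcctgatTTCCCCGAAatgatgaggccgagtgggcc
Irf8 (chr8:120736167-120736233, plus strand): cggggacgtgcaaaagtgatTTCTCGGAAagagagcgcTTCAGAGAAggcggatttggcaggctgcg
Ifnar2 (chr16:91372549-91372597, plus strand): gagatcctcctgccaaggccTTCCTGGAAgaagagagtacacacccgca
The core began 90 bases before the start site in Irf1, 171 and 153 in Irf8, and 214 in Ifnar2. Stat2, Irf9, Irf7 and Irf5, also called lower, held no such core in their windows. Oas1a and Bst2, among other members, held it and were not called.

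All 6 nucleic acid sensors had estimates below 0, except that Dhx58 turned above 0 with plain totals and voom, and 2 were called lower. Adar, which edits adenosine to inosine in double-stranded RNA, was at 23.5, 24.2 and 23.7 FPKM in WT and 18.7, 18.3 and 17.8 FPKM in PGRN KO (log2 fold change -0.37, SE 0.042, adjusted p = 0.00253). Ifih1, which encodes the RNA sensor MDA5, was called lower (log2 fold change -0.25, adjusted p = 0.0240). Zbp1, a sensor of Z-form nucleic acid that can trigger necroptosis and the most abundant of the 6, was at 84.1, 82.5 and 86.6 FPKM in WT and 73.3, 73.9 and 78.9 FPKM in PGRN KO (log2 fold change -0.16, adjusted p = 0.0513). It was separated between genotypes and just missed the threshold. Ddx58, which encodes RIG-I, Dhx58, which encodes LGP2, and Eif2ak2, which encodes the kinase PKR, had log2 fold changes from -0.15 to -0.054 and were not called.

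Dhx58 and Ifi35 are the members that lie nearest to Grn on chromosome 11, at chr11:100694884-100704271 and chr11:101448407-101458698, with Grn at chr11:102430315-102437048. Neither was called, and their log2 fold changes were -0.054 and 0.016. Stat3, which is not a member and is given below with interferon signalling, lies between them at chr11:100885098-100939540. It was called lower (log2 fold change -0.35, adjusted p = 0.00561).

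Neither member of the ISG15 system, Isg15 or Usp18, was called. Ube2l6, another gene of that system outside the members, was called higher and is described below. Isg15, which encodes a ubiquitin-like protein and was the third most abundant member, was at 801, 795 and 649 FPKM in WT and 663, 621 and 594 FPKM in PGRN KO (log2 fold change -0.25, SE 0.091, adjusted p = 0.107). WT replicate 3 lay between the PGRN KO libraries, and without it Isg15 was called lower (log2 fold change -0.35). Usp18, which removes ISG15 and restrains signalling from IFNAR2, was at 89.3, 90.1 and 89.9 FPKM in WT and 81.9, 87.1 and 90.4 FPKM in PGRN KO (log2 fold change -0.054, adjusted p = 0.472), and PGRN KO replicate 6 was above all 3 WT libraries.

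The IFIT genes, whose proteins bind viral RNA, differed in their estimates, and 1 of 4 was called lower. Ifit2 was at 106, 103 and 106 FPKM in WT and 66.7, 70.0 and 84.5 FPKM in PGRN KO (log2 fold change -0.51, SE 0.087, adjusted p = 0.0103), which is 29.8% below the WT mean with no overlap. Without PGRN KO replicate 5 its log2 fold change of -0.48 was not called. Ifit3, the most abundant of the 4, was at 160.2, 167 and 174 FPKM in WT and 143, 157 and 169 FPKM in PGRN KO (log2 fold change -0.096, adjusted p = 0.387), and the genotypes overlapped. Ifit1 and Ifit3b had log2 fold changes of -0.25 and -0.13 and were not called. Ifit3 and Ifit3b are near-identical copies, so how reads were divided between them is uncertain. Without PGRN KO replicate 6, the library nearest to WT for this family, both Ifit1 and Ifit3b were called lower.

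Ratios within a library do not depend on how libraries are scaled. The ratio of Ifit2 to Ifit3 FPKM was 0.663, 0.618 and 0.609 in WT and 0.466, 0.447 and 0.50 in PGRN KO, so Ifit2 was lower relative to its neighbour in every PGRN KO library. Of 9 such pairs computed between members, 7 separated the genotypes, all lower in PGRN KO, with an exact permutation p of 0.1 (two-sided), the smallest that 3 against 3 can give. The pairs were chosen with values known, so the count, the direction and these p-values support nothing. The same holds for the ratios given below with other families. The other 2 overlapped: Ifnar2 over Ifnar1 was 1.45, 1.43 and 1.39 in WT and 1.44, 1.44 and 1.51 in PGRN KO, and Usp18 over Isg15 was 0.112, 0.113 and 0.139 in WT and 0.124, 0.140 and 0.152 in PGRN KO.

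The OAS family was split. Oasl1, an OAS-like protein that represses translation of Irf7, was at 147, 152 and 147 FPKM in WT and 93.5, 98.8 and 99.1 FPKM in PGRN KO (log2 fold change -0.61, SE 0.041, adjusted p = 3.87e-04), or 34.6% lower. This was the smallest adjusted p among the 54. Oasl2, a second OAS-like gene, was called lower by less (log2 fold change -0.23, adjusted p = 0.0151). Oas1a, which makes the 2′-5′ oligoadenylate that activates RNase L and was the most abundant of the 5, was at 174, 178 and 178 FPKM in WT and 172, 173 and 188 FPKM in PGRN KO (log2 fold change 0.0070, SE 0.047, adjusted p = 0.940), and its libraries overlapped.

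Oas2 and Oas3, the larger synthetases, had log2 fold changes of -0.032 and -0.078 and were not called. The ratio of Oasl1 to Oas1a was 0.842, 0.852 and 0.824 in WT and 0.543, 0.570 and 0.526 in PGRN KO. The ratio of Oasl1 to Oasl2 was 1.48, 1.6 and 1.53 in WT and 1.14, 1.24 and 1.15 in PGRN KO. Both ratios separated the genotypes, with PGRN KO lower. The Oas1 genes are close copies of each other, and reads may have been shared among them.

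Mx1 had the largest change of the 54 genes. Mx1 (chr16:97447035-97462907) encodes an interferon-induced GTPase active against influenza virus, and the allele of C57BL/6 mice lacks coding exons and gives no functional protein. It was at 22.5, 20.8 and 22.5 FPKM in WT and 9.37, 10.3 and 12.3 FPKM in PGRN KO (log2 fold change -0.98, SE 0.095, adjusted p = 0.00142), which is 51.3% below the WT mean. These values rest on 1314 to 1457 fragments per WT library and 633 to 916 per PGRN KO library. Leaving out each library in turn gave log2 fold changes from -1.08 to -0.90.

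Mx2, its neighbour on chromosome 16, was expressed at lower FPKM of 4.76, 5.42 and 5.99 in WT and 3.44, 3.96 and 4.48 in PGRN KO (log2 fold change -0.37, SE 0.10, adjusted p = 0.0558). The genotypes did not overlap, and Mx2 was not called, although it was with voom, with quantile normalization and among genes with a mean of at least 1 FPKM. The ratio of Mx1 to Mx2 was 4.72, 3.84 and 3.75 in WT and 2.72, 2.60 and 2.75 in PGRN KO.

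**Figure D3:**
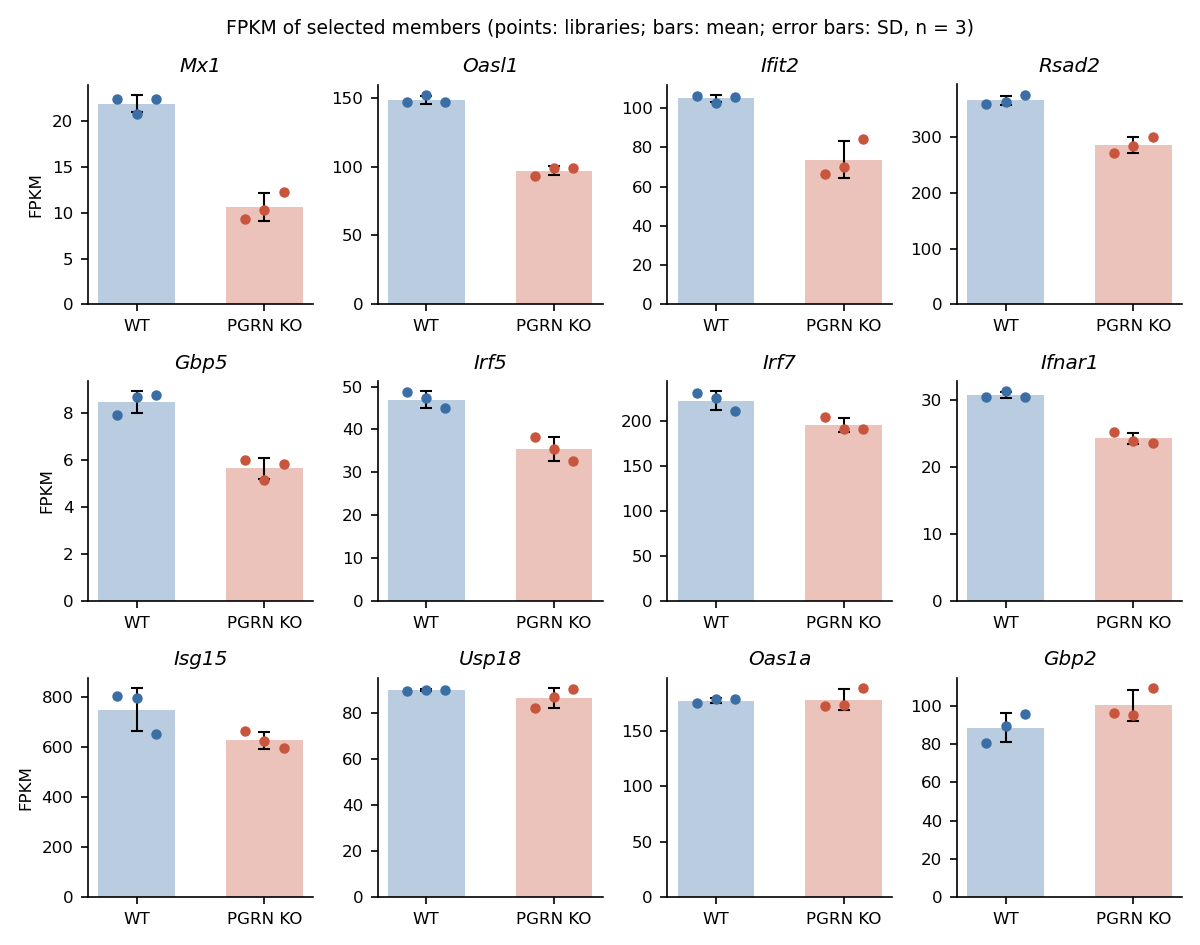
FPKM of 12 members in each of the 6 libraries, with points for libraries, bars for the mean of each genotype and error bars for the SD (n = 3), on axes that start at 0. The upper 8 panels show genes called lower in PGRN KO, and the last 4 (Isg15, Usp18, Oas1a and Gbp2) show genes that were not called and whose genotypes overlap.

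Of the 11 other antiviral effectors, 3 were called lower, and their log2 fold changes ran from -0.36 to 0.12. Rsad2, which encodes viperin and was the most abundant of them, was at 360.2, 363 and 376 FPKM in WT and 273, 285 and 302 FPKM in PGRN KO (log2 fold change -0.36, SE 0.049, adjusted p = 0.00480). Cmpk2, which lies beside Rsad2 and encodes a nucleotide kinase, was called as well (log2 fold change -0.33, adjusted p = 0.0136). Parp14, an ADP-ribosyltransferase, passed narrowly (log2 fold change -0.22, adjusted p = 0.0493) and was not called with plain totals.

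The other 8 were not called. Isg20, an exonuclease, Rtp4, a chaperone of receptors, and Samd9l, an inhibitor of translation, had log2 fold changes of -0.23, -0.18 and -0.18. Trim30a, Ifi35 and Ifi44 were within 0.1 of 0 on that scale, and Ifi44 rested on only 51 to 88 fragments per library. Bst2, which encodes tetherin, and Xaf1, which promotes apoptosis, were above 0, at 0.074 and 0.12, with overlapping libraries.

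The IFITM proteins, which block the entry of viruses through membranes, included the second most abundant member. Ifitm3 was at 1994, 1988 and 1873 FPKM in WT and 1630.1, 1743 and 1736 FPKM in PGRN KO (log2 fold change -0.20, SE 0.049, adjusted p = 0.0371), and it was the 1 called gene of the 4. The genotypes did not overlap, but the change was small, 12.7% of the WT mean. It was not called in any of the 6 fits that left out a library, or with plain totals (log2 fold change -0.076). Ifitm2, Ifitm1 and Ifitm6 had log2 fold changes of -0.068, 0.072 and 0.11 and were not called.

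Among the guanylate-binding proteins and immunity-related GTPases, which attack vacuoles holding microbes, 4 of 6 were called lower. Gbp5, which promotes assembly of the NLRP3 inflammasome, was at 7.91, 8.67 and 8.74 FPKM in WT and 5.99, 5.14 and 5.80 FPKM in PGRN KO (log2 fold change -0.51, SE 0.071, adjusted p = 0.00519), or 33.2% lower. Gbp3 was at 9.34, 9.35 and 8.64 FPKM in WT and 6.86, 6.02 and 7.18 FPKM in PGRN KO (log2 fold change -0.40, SE 0.073, adjusted p = 0.0132). Irgm1, a regulator of the other immunity-related GTPases and of autophagy, was at 32.3, 34.6 and 34.2 FPKM in WT and 23.5, 25.4 and 29.2 FPKM in PGRN KO (log2 fold change -0.37, SE 0.082, adjusted p = 0.0258). Igtp, also known as Irgm3, was called as well (log2 fold change -0.28, adjusted p = 0.0399).

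Gbp2 and Gbp7 had estimates above 0 and were not called. Gbp2, the most abundant of the 6, was at 80.7, 89.5 and 95.5 FPKM in WT and 96.0, 95.0 and 109 FPKM in PGRN KO (log2 fold change 0.18, SE 0.080, adjusted p = 0.191), and it had the highest estimate of all 54 members. Gbp7 had a log2 fold change of 0.13. The ratio of Gbp5 to Gbp2 was 0.0981, 0.0969 and 0.0915 in WT and 0.0623, 0.0541 and 0.0531 in PGRN KO, with no overlap. The Gbp genes lie in clusters of similar copies, so the division of reads among them is uncertain.

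The Schlafen genes, which act on growth and translation in myeloid and T cells, included the most abundant member. Slfn4, a gene of myeloid cells, was at 1893, 2062 and 2281 FPKM in WT and 1805, 1827 and 1947 FPKM in PGRN KO (log2 fold change -0.16, SE 0.075, adjusted p = 0.206), with overlap between the genotypes. Slfn5 was called lower (log2 fold change -0.28, adjusted p = 0.0150). Slfn1, which restrains T cell growth, had an estimate of 0.081 and was not called. The ratio of Slfn5 to Slfn1 was 0.205, 0.203 and 0.200 in WT and 0.166, 0.152 and 0.152 in PGRN KO.

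In order of level, the mean FPKM over the 6 libraries ran from 0.620 for Ifi44 to 1827 for Ifitm3 and 1969 for Slfn4. Isg15, Ifitm2, Ifitm6 and Rsad2 followed at 687, 466, 397 and 326 FPKM. The libraries of Slfn4 and Ifitm3 overlapped in level, as did those of Ifitm2 and Ifitm6, and Isg15 was above Ifitm2 in every library. Members that were called lower were found along the range, from Irf8 at 2.61 FPKM to Ifitm3.

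Other genes of the interferon pathway were read from a separate list of 116 genes, of which 115 were in the table and 94 passed the filter on low values. Like the members, this list was chosen with earlier results of these data known, so its counts give no independent support. Of the 94, 38 (40.4%) were called lower and 5 (5.32%) higher, with a median log2 fold change of -0.23. Over all genes tested, 9.95% were called lower and 7.94% higher. Among those with a mean of at least 1 FPKM, 14.5% were called lower. These shares are also the background of the group counts below. The ligands were hardly detected. Of 20 interferon genes, 19 had 0 fragments in all 6 libraries, which allows up to 3 fragments in each. Ifnb1, which encodes interferon beta, had 6, 13 and 19 fragments in WT and 7, 8 and 10 in PGRN KO (log2 fold change -0.29, adjusted p = 0.329), with overlap between the genotypes.

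Of 16 genes of interferon signalling, 6 were lower and none higher. Jak1, a kinase of both interferon receptors, was at 63.8, 64.3 and 69.8 FPKM in WT and 48.0, 47.4 and 52.6 FPKM in PGRN KO (log2 fold change -0.41, SE 0.059, adjusted p = 0.00566). Jak2, a kinase of the interferon gamma receptor, and Stat3, which also serves interleukin 6, had log2 fold changes of -0.39 and -0.35. Socs3, an inhibitor of cytokine signalling, was at 203, 199 and 187 FPKM in WT and 165, 109.9 and 111 FPKM in PGRN KO (log2 fold change -0.63, adjusted p = 0.0333), and was called in 1 of the 6 fits that left out a library. Pias1, which restrains STAT signalling, was called at -0.27, and Il10rb was given with the receptors.

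Among 12 genes that sense nucleic acid or relay that signal, 6 were lower and 1 higher. Tlr7 and Tlr9, endosomal receptors for RNA and DNA, had log2 fold changes of -0.49 and -0.49. Tmem173, which encodes STING, Ticam1, which encodes the adaptor TRIF, Tbk1, the kinase that activates IRF3, and Mb21d1, which encodes cGAS, were at -0.39, -0.36, -0.28 and -0.24. Unc93b1, which escorts Toll-like receptors to endosomes, was higher at 0.14 (adjusted p = 0.0453), and was called in 1 of the 6 fits that left out a library.

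Of 65 other interferon-induced genes tested, 26 were lower and 4 higher. The lowest were Phf11a, Phf11d, Ms4a4c, Ifi205 and Phf11b, with log2 fold changes from -0.99 to -0.87. Ms4a4c, a membrane protein of myeloid cells, was at 116, 112 and 116 FPKM in WT and 56.6, 57.1 and 67.8 FPKM in PGRN KO (log2 fold change -0.91, SE 0.073, adjusted p = 7.40e-04). Cd274, which encodes PD-L1, was at 384, 393 and 407 FPKM in WT and 297, 268 and 283 FPKM in PGRN KO (log2 fold change -0.48, SE 0.050, adjusted p = 0.00186). Cxcl10, a chemokine that draws T cells, was at 95.8, 98.9 and 105 FPKM in WT and 74.5, 81.0 and 80.8 FPKM in PGRN KO (log2 fold change -0.34, adjusted p = 0.00849).

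The 4 genes called higher included Ifi27l2a, which was at 167, 168 and 155 FPKM in WT and 241, 244 and 265 FPKM in PGRN KO (log2 fold change 0.61, SE 0.054, adjusted p = 0.00110). Ly6e, which restricts coronaviruses, and Ube2l6, the conjugating enzyme for ISG15, had log2 fold changes of 0.50 and 0.49. Oas1g, a close copy of Oas1a, was at 40.5, 49.7 and 51.6 FPKM in WT and 62.9, 61.8 and 60.7 FPKM in PGRN KO (log2 fold change 0.39, adjusted p = 0.0287), while Oas1a itself was not called. Ifi27l2a, Ly6e and Ube2l6 were called in all 6 fits that left out a library, and Oas1g in 2.

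**Figure D4:**
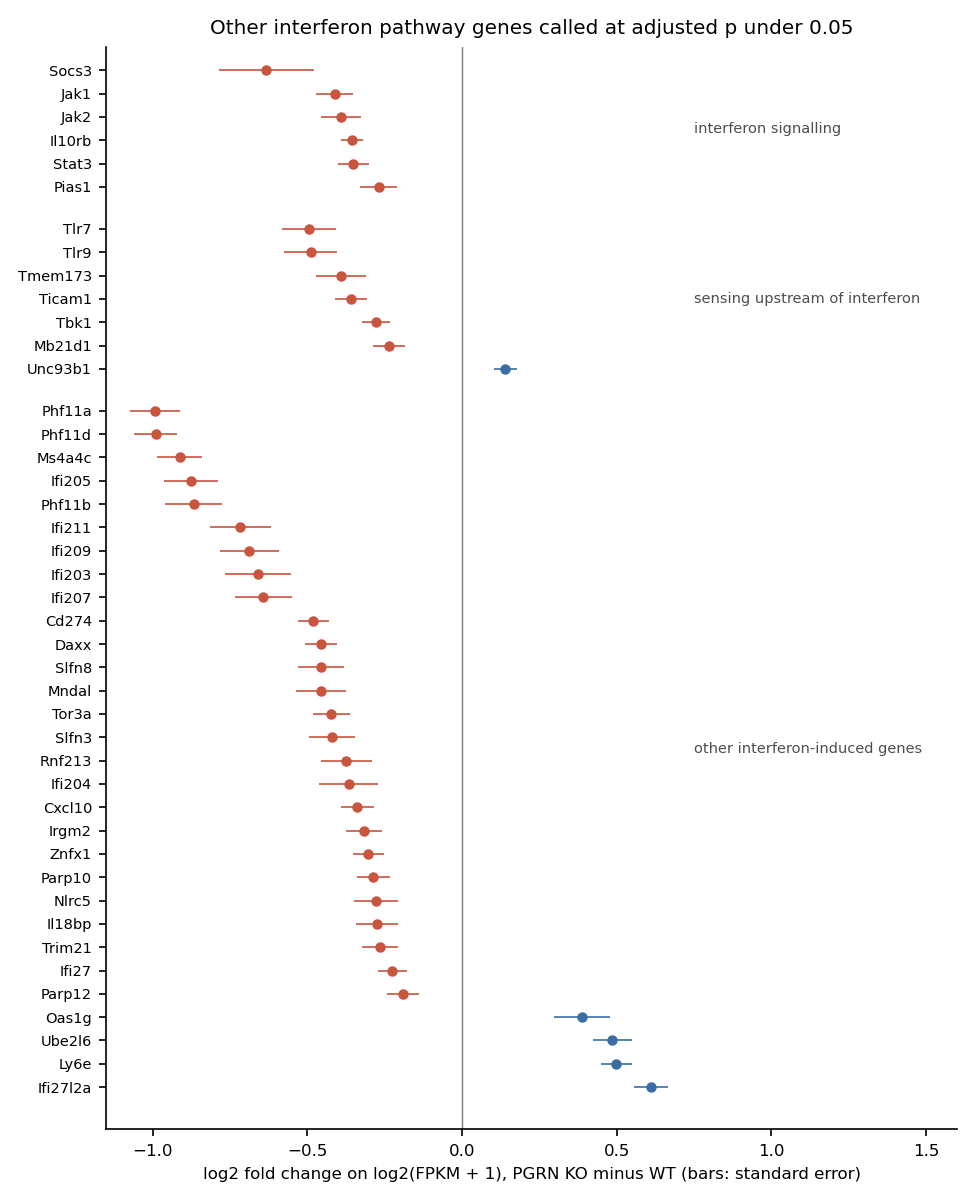
Log2 fold change (PGRN KO minus WT, on log2(FPKM + 1)) of the 43 genes of the separate pathway list that were called at an adjusted p under 0.05, with bars for the standard error (n = 3 per genotype). The 38 red points lie to the left of 0 in all 3 groups of genes, and the 5 blue points to the right are Unc93b1, Oas1g, Ube2l6, Ly6e and Ifi27l2a.

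Markers of other cells also differed between the genotypes. Of 10 monocyte and macrophage markers, 5 were called lower and 0 higher, none was at 0, and the sums did not overlap between genotypes. Ms4a6c, Ccr2 and Ly86, genes of monocytes, were the lowest, with log2 fold changes of -1.1, -0.82 and -0.65. Csf1r and Adgre1, which mark monocytes and macrophages as well, were at -0.15 and -0.094 and were not called. Fcgr1 and Klf4, at -0.32 and -0.17, were not called either. Cx3cr1 was the 1 marker of the list above 0, at 0.10, with overlapping libraries and no call. Irf8, Ms4a4c and other genes described above are also expressed by monocytes.

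Plasmacytoid dendritic cells, known for making much type I interferon, were looked for by 8 markers, of which 4 passed the filter on low values. The sum of all 8 was 2.42 to 3.43 FPKM in WT and 3.01 to 3.49 FPKM in PGRN KO. Of the markers that did not pass, Klk1 had no fragment, and Siglech had 1 fragment, in WT replicate 1. Pacsin1 had 0 to 2 fragments per library and Ccr9 had 8 to 14. Ly6d was called higher in PGRN KO (log2 fold change 0.71, adjusted p = 0.0339), at 1 to 9 fragments in WT and 15 to 22 in PGRN KO, and it was called in 2 of the 6 fits that left out a library. Tcf4, at 228 to 271 fragments per library, Runx2, at 193 to 248, and Cox6a2, at 0 to 6, were not called. All 3 are also known from other cells or tissues. Which cells gave the fragments of these genes or of Ly6d was not measured, and the part of these genes in the differences was not tested. The sum of 7 conventional dendritic cell markers was 6.83 to 7.31 FPKM in WT and 4.41 to 5.10 FPKM in PGRN KO, and Itgax was the 1 of 3 tested that was called lower.

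Promyelocyte genes were higher. Of 8, 7 were called higher, with a sum of 343 to 383 FPKM in WT and 873 to 943 FPKM in PGRN KO. Elane, which encodes neutrophil elastase, was at 62.9, 59.2 and 56.4 FPKM in WT and 263, 260.1 and 246 FPKM in PGRN KO (log2 fold change 2.09, adjusted p = 1.20e-05). All 4 tested B and plasma cell markers, 6 of 7 eosinophil, basophil and mast cell markers and 1 of 3 tested T and NK cell markers were also called higher, while Pax5 and Cd3e were at 0 in all libraries. Of the 12 neutrophil markers, 2 were lower (Csf3r and Mmp8) and 1 higher (Mmp9). The part of these shifts in the level of interferon-induced genes was not tested.

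**Figure D5:**
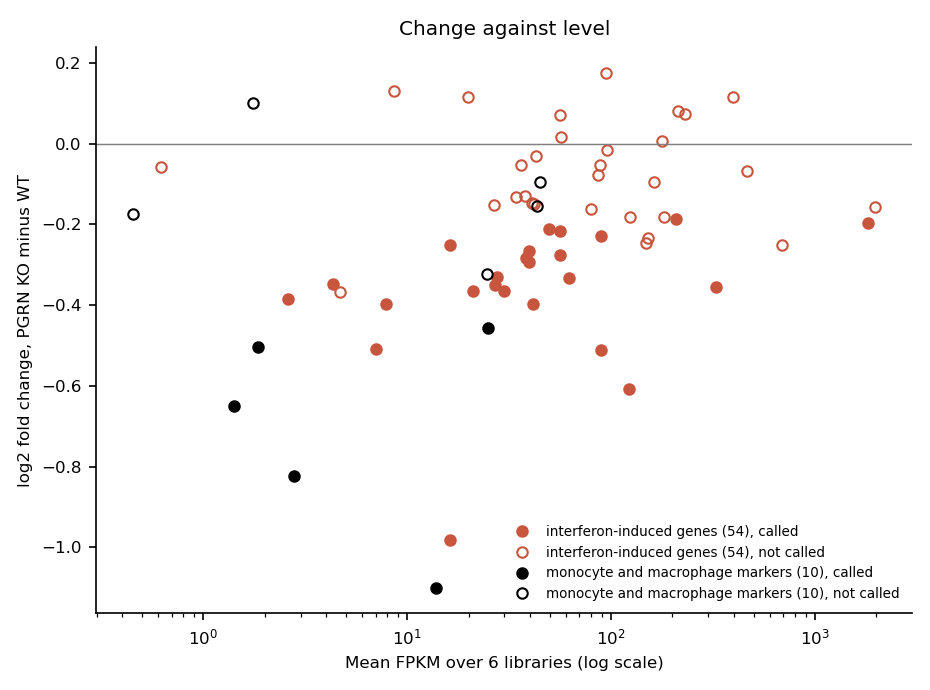
Log2 fold change (PGRN KO minus WT) against the mean FPKM over 6 libraries on a log axis, for the 54 interferon-induced genes (red) and 10 monocyte and macrophage markers (black). Filled points were called at an adjusted p under 0.05 and open points were not. All 24 filled red points lie below 0 and spread over the range of FPKM, and 4 of the 5 filled black points lie below -0.5, as do Mx1, Oasl1, Ifit2 and Gbp5 among the red.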

How the data were processed

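RNA sequencing of mouse bone marrow neutrophils challenged with Candida albicans for 6 h was compared between 3 WT and 3 PGRN KO libraries, grouped from their labels. The authors filtered reads, aligned them to the mouse genome and deposited FPKM values per gene. The study's methods name HISAT and HTSeq, and the submitters' processing notes name HISAT2 2.0.5, featureCounts 1.5.0-p3 and builds mm10 and GRCm38, so positions are given on GRCm38. DESeq2 was the authors' test of differential expression. Of 54532 genes, 31614 were at 0 in all 6 libraries.

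Values were analysed as log2(FPKM + 1) for genes with a mean of at least 0.1 FPKM. WT and PGRN KO were compared in limma 3.58.1 (lmFit, eBayes with trend, two-sided; R 4.3.3), with Benjamini-Hochberg adjustment over 14807 genes and a threshold of 0.05. Fragments were recovered as FPKM times gene length times a library size inferred for each library, whole within 0.05. They sum to 17087344 to 18821091 per library, a depth that covers counting error only. Replicates of a genotype correlated across genes with r of at least 0.991 and differed by more than sampling noise (chi-square per degree of freedom at least 2.83). Deposited values follow median-of-ratios library sizes.

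The members, the pathway list and the marker lists were chosen with earlier results of these data known. Per-library values are given for the 12 called members with the largest change, the receptors, the transcription factors and the most abundant member of each role, and other members are given by range and count. Alternatives were 2 pseudocounts, 2 filters, 3 scalings, 2 variance models, voom on recovered fragments and each library left out. The fit was tested on simulated data. The result for 1 gene of the pathway list is not reported here. Motifs were counted with Python 3.11.15, numpy 2.4.6 and pandas 2.3.3, and figures were drawn with matplotlib 3.10.9.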

Additional observations from a re-analysis of the deposited data

How the results depend on the processing

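The counts of called genes moved with plain totals, with voom and with single libraries. With plain totals of fragments, 13 members were lower and 1 higher, 934 of all genes were lower and 2149 higher, and the members' median log2 fold change was -0.072. With voom, 6 members, 9 pathway genes and 2984 of all genes were higher, and the members' median was -0.072. Without a filter, 3 pathway genes were higher. Leaving out each library in turn gave 12 to 25 members lower and 0 to 1 higher (Ifitm6, without PGRN KO replicate 4), 24 to 41 pathway genes lower and 3 to 4 higher, and 775 to 1248 of all genes lower and 540 to 913 higher. The lowest counts of members called lower, and of all genes called lower, came without WT replicate 2 and without PGRN KO replicate 5. The cause was not tested. The members' median stayed between -0.23 and -0.16 in those 6 fits.

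Members that changed sign were near 0 and called in no such fit. Their log2 fold changes were, with plain totals, Dhx58 0.064, Usp18 0.065, Ifit3 0.023, Oas2 0.086, Oas3 0.041, Trim30a 0.10, Ifitm2 0.052; with voom, Dhx58 0.066, Usp18 0.066, Ifit3 0.024, Oas2 0.087, Oas3 0.041, Trim30a 0.10, Ifitm2 0.052; and with quantile normalization, Usp18 0.040, Oas2 0.015, Oas3 0.011, Trim30a 0.083. Over the fits that left out 1 library, sign changes gave ranges of Ifi35 -0.00050 to 0.030, Oas1a -0.034 to 0.030, Oas2 -0.089 to 0.020, Trim30a -0.081 to 0.035. Other pseudocounts and median-of-ratios scaling changed no member's call, and the latter is the scaling of the deposited values themselves. No paired analysis was possible because the labels name no pairs of WT and PGRN KO cultures. Depth limits what can be said of Ifnb1 and Ifi44, which had the fewest fragments among the interferon genes with values in the text.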

Other observations

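Genes of the pathway list that lie in clusters of related copies were looked at together after their values were seen, so these are values with no test of the cluster. On chromosome 1, Ifi203, Ifi204, Ifi205, Ifi207, Ifi209, Ifi211 and Mndal, which encode PYHIN proteins that bind DNA, were called lower, with log2 fold changes from -0.88 to -0.37. Ifi205 (chr1:174011998-174031810, GRCm38) was at 35.4, 34.7 and 39.7 FPKM in WT and 17.7, 19.0 and 21.8 FPKM in PGRN KO. Aim2, the PYHIN sensor that assembles an inflammasome, and Ifi208 had log2 fold changes of -0.12 and -0.12 and were not called. These genes share sequence, and the division of reads among them is uncertain.

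On chromosome 14, Phf11a, Phf11b and Phf11d were called lower. Phf11d (chr14:59347407-59365470) was at 7.67, 7.96 and 8.94 FPKM in WT and 3.5, 3.55 and 3.80 FPKM in PGRN KO, which is 55.8% below the WT mean. Among Schlafen genes outside the members, Slfn3 and Slfn8 were called lower (log2 fold changes -0.42 and -0.46), and Slfn2, the most abundant of them, was at 802, 833 and 832 FPKM in WT and 761, 739 and 776 FPKM in PGRN KO and was not called (adjusted p = 0.0973).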
